A study of Mus musculus with 26 samples.

Results

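Htr2c and 8 further receptor genes were followed in choroid plexus (ChP) of the mouse 4th ventricle, the epithelium on a vascular stroma that secretes cerebrospinal fluid. The genes were taken by their symbols, Htr2c, Adora2b, Ednrb, Calcrl, Lpar1, F2rl3, Gpr75, Gpr137c and Paqr9, and each symbol matched 1 of the 55416 genes in the deposited tables. All 9 genes passed the minimum of a mean of 1 CPM, counts scaled to library size, in each group, as 13697 genes did.

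The mice were adult male C57Bl6J animals, of which 12 had sham surgery (Ctrl) and 12 had the suprachiasmatic nuclei destroyed electrolytically (SCNx), the hypothalamic nuclei that hold the central circadian pacemaker. Both groups were returned to a light-dark cycle and then kept in constant darkness. From circadian time (CT) 0 to CT44, 1 mouse of each group was killed every 4 h, with the ChP taken by pincers. SCNx mice with a detectable locomotor rhythm had been excluded, so CT in SCNx counts hours from the omitted lights-on. With 1 mouse per time, rhythms that differ in phase between SCNx mice could not be seen. A further 2 mice (KO) carried FoxJ1-ERT2-Cre+/-; Bmal1fl/fl, in which tamoxifen in the diet deletes the clock gene Bmal1 (Arntl in the tables) in cells that express Foxj1. This promoter is active in multiciliated cells, so that stromal and vascular cells of the ChP should keep the gene. These KO mice stayed in a light-dark cycle, 1 was killed at Zeitgeber time (ZT) 7 in the day and 1 at ZT18 in the night, and their ChP was cut from frozen sections by laser-capture microdissection and sequenced with a different library kit. Every time point of every group is thus a single mouse, and libraries are named by group and time.

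Most of these receptors cross the membrane 7 times and hand a signal from outside the cell to heterotrimeric G proteins, which switch phospholipase C, adenylyl cyclase or other effectors. The serotonin 2C receptor, encoded by Htr2c, is known as one of the most abundant receptors of ChP epithelium and signals through Gq to phospholipase C and calcium. The A2B adenosine receptor (Adora2b) raises cAMP through Gs, and the receptors for endothelin, calcitonin family peptides and lysophosphatidic acid act largely on vessels and glia.

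A Ctrl library held from 38751201 to 47335258 estimated counts, an SCNx library from 41807043 to 49527655, and the KO libraries 17425207 and 18059227. The 8 epithelial markers, among them Ttr, Folr1 and Kcnj13, were read in every library, and their sum was lowest in SCNx CT32 among the 24 libraries of Ctrl and SCNx. A few libraries stood apart by transcripts of other tissues. The 5 astrocyte markers summed to 713 CPM in Ctrl CT4 and 941 CPM in SCNx CT32, against at most 144 CPM in any other Ctrl or SCNx library, and the 9 neuronal markers peaked in the same libraries. The 8 hepatocyte markers summed to 1830 CPM in Ctrl CT16 and 10591 CPM in SCNx CT0, against at most 31.2 CPM elsewhere. The clock gene Arntl had a fitted 24 h amplitude of 2.23 on the log2 scale in Ctrl and 0.48 in SCNx. For the receptor genes, results that rest on these libraries are given below with and without them.

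Htr2c (ENSMUSG00000041380) was by far the most abundant transcript of the set. Its level in Ctrl was 924 CPM in the lowest library, 1064 CPM at the median and 1276 CPM in the highest, a mean of 1081 ± 96.5 CPM (SD, n = 12), which placed it at rank 59 among the tested genes by mean CPM in Ctrl. In SCNx the lowest, median and highest libraries had 877, 1079 and 1136 CPM, a mean of 1055 ± 74.9 CPM (SD, n = 12). The groups overlapped, with 9 of 12 Ctrl libraries inside the range of SCNx. None of the 13 other serotonin receptor genes listed reached the minimum for testing, and the highest of them by mean in Ctrl was Htr3a, a subunit of the ion channel type of serotonin receptor, at 0.63 CPM.

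Per kb of exon, a scale on which genes can be compared, the mean level of Htr2c in Ctrl was 116 ± 10.3 CPM per kb (SD, n = 12). Ednrb followed with 21.7 ± 2.10, Paqr9 with 10.7 ± 1.96 and Adora2b with 8.06 ± 1.54 CPM per kb. The last 5 genes lay close together, from 2.49 ± 0.67 CPM per kb for Calcrl through F2rl3 with 2.17, Gpr75 with 2.11 and Lpar1 with 1.80 to 1.58 ± 0.28 for Gpr137c. The Ctrl ranges of Htr2c and Ednrb, of Ednrb and Paqr9, and of Adora2b and Calcrl did not overlap, whereas those of Paqr9 and Adora2b did, as did those of any neighbours among the last 5 genes. Lengths were the merged exons of an earlier annotation release, so a gene whose expressed transcript is shorter than that has a higher true level per kb.

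**Figure D1:**
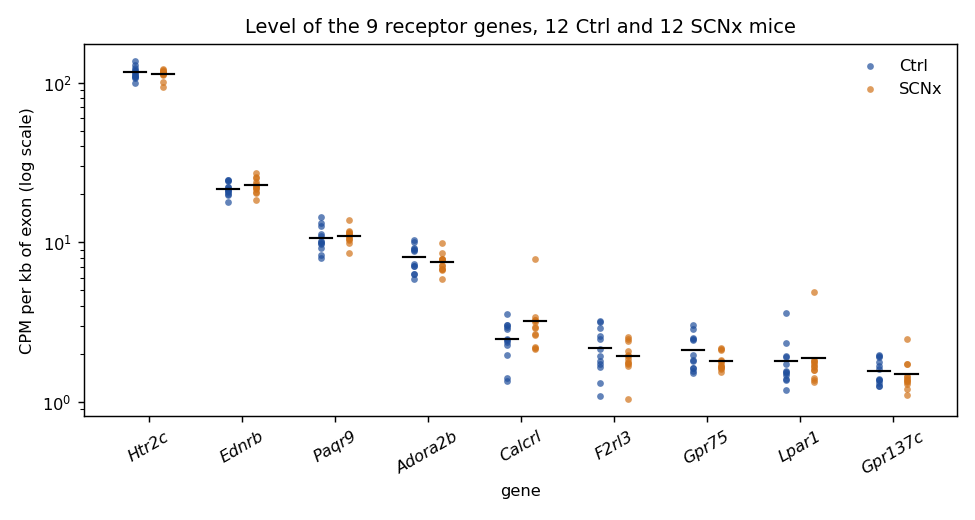
Level of each receptor gene in CPM per kb of exon on a log axis, with 1 point per mouse (12 Ctrl, 12 SCNx) and a bar at the group mean. Htr2c lies near 116 CPM per kb in Ctrl, above every library of the other 8 genes, and Ctrl and SCNx overlap for each gene. The highest SCNx points of Calcrl, Lpar1, Gpr137c and Gpr75 are all SCNx CT32.

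Over the 2 days Htr2c showed no rhythm that passed the test. Within Ctrl it ran from 994 CPM at CT12 to 1276 CPM at CT0 on the first day and from 924 CPM at CT44 to 1203 CPM at CT32 on the next, so that neither the high nor the low times recurred. The correlation of log2 CPM between the 2 days over the 6 matched times was 0.14 in Ctrl and 0.026 in SCNx, given as a description. The fitted 24 h amplitude is the log2 distance from the mean to the peak of the curve. It was 0.072 ± 0.050 in Ctrl and 0.036 ± 0.050 in SCNx (SE, 12 mice each). The SE of an amplitude draws on the spread of all 24 libraries, so it is the same in both groups. A rhythm in Ctrl had an adjusted p of 0.606 in edgeR's quasi-likelihood test (Benjamini-Hochberg), and the adjusted p of the difference between the groups was 0.627. The difference in level, SCNx minus Ctrl, was -0.035 ± 0.049 on the log2 scale (SE). It had a 95% interval from -0.14 to 0.066 and an adjusted p of 0.855 in the same test. This difference was -0.010 without Ctrl CT16 and SCNx CT0, and -0.033 without Ctrl CT4 and SCNx CT32.

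The 5 tested genes whose log2 CPM ran most like that of Htr2c over the 24 libraries were Fzd6, a Wnt receptor (Pearson r 0.88), Dag1, which encodes dystroglycan (0.87), Elovl7, a fatty acid elongase (0.87), Xpr1, a phosphate exporter (0.85), and Tgfb2, a growth factor (0.85). These libraries share normalization and composition, so the values are descriptive. Htr2c was lowest in SCNx CT0 and highest in Ctrl CT0, and without both libraries the same correlations were between 0.78 and 0.87.

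The promoter of Htr2c is shown because it was the only one of the set with a match to a clock-related motif. It is the 250 bases before the gene start in RefSeq (GRCm38.p6, chrX:146962263-146962512, plus strand), a build other than that of the tables, and the capitals mark the nuclear receptor motif AGGTCA read on the opposite strand, at bases 230 to 225 before the start.
Htr2c promoter: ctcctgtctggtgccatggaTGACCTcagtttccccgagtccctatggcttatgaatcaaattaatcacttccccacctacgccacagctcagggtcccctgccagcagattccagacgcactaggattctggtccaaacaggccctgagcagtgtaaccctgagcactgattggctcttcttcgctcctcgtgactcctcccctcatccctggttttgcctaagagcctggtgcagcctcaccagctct
This motif was present in 14% of the 32851 promoters of the same length in the table. A match is a description of the letters and not of binding.

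Genes that handle serotonin or carry the signal of Gq mostly passed no test either. Of 23 genes on the serotonin list 5 were expressed above the minimum, and 1 of them passed the test of a rhythm in Ctrl. This was Adarb1, an adenosine deaminase of double-stranded RNA that is known to edit Htr2c transcripts, with 75.4 CPM in the lowest, 81.6 CPM at the median and 89.9 CPM in the highest Ctrl library and an amplitude of 0.11 on the log2 scale (adjusted p = 0.0143, edgeR). The most abundant gene of the list was Maob, which degrades amines in mitochondria, with a mean of 180 CPM in Ctrl and an adjusted p of 0.0511. Of 15 genes for Gq, phospholipase C, the inositol trisphosphate receptors and protein kinase C 13 were tested and 1 passed, Prkcd, a protein kinase C, with an amplitude of 0.13 and an adjusted p of 0.0449. Itpr1, the intracellular calcium channel at the end of that chain, was the most abundant of them with a mean of 1067 CPM in Ctrl and 1126 CPM in SCNx, and its amplitude in Ctrl was 0.057.

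Across the set, 4 of 9 receptor genes passed the test of a 24 h rhythm in Ctrl, Adora2b, F2rl3, Gpr75 and Paqr9, by edgeR's quasi-likelihood test, Benjamini-Hochberg adjusted over all tested genes. In the same test 10.7% of the 13697 tested genes passed. The median amplitude of the 9 genes in Ctrl was 0.32 on the log2 scale, beside 0.11 over all tested genes. In SCNx it was 0.11 beside 0.091. The 9 genes were listed with earlier results of these data known, and neither the count nor the medians were tested as a set.

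Adora2b (ENSMUSG00000018500) rose and fell once a day in Ctrl. Its level there was 10.9 CPM in the lowest library, 14.9 CPM at the median and 19.1 CPM in the highest. The 2 days gave the same picture, with 10.9 CPM at CT4 and 16.8 CPM at CT12 on the first day, and 11.6 CPM at CT24 and 19.1 CPM at CT36 on the next. The correlation of the days over 6 matched times was 0.92. The fitted curve peaked at CT12.9, the start of the subjective night, with an amplitude of 0.35 ± 0.067 (SE). The change from trough to peak was 1.62-fold, with an adjusted p of 0.00462 in edgeR's quasi-likelihood test.

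In SCNx Adora2b lay between 10.96 CPM and 18.4 CPM with a median of 13.8 CPM, and the highest library was SCNx CT8. The fitted amplitude was 0.10 ± 0.067 with an adjusted p of 0.592 for a rhythm (edgeR). In the comparison of both rhythms the test gave 0.0142 as the unadjusted p and 0.197 as the adjusted p, so it did not pass. The genes most like Adora2b over the 24 libraries were Sgk1, a kinase induced by steroid hormones (r 0.88), Osbpl2, an oxysterol-binding protein (0.87), and Gm32468 (0.86).

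On the adenosine list 9 of 11 genes were tested and 1 passed in Ctrl. This was Nt5e, which encodes the surface enzyme CD73 that makes adenosine from AMP. Nt5e had 25.1 CPM in the lowest Ctrl library, CT40, a median of 36.6 CPM and 55.0 CPM in the highest, CT0. Its fitted peak was at CT2.14 with an amplitude of 0.49 ± 0.069 (adjusted p = 0.000177, edgeR), and its rhythm differed between Ctrl and SCNx (adjusted p = 0.00659). The enzyme and the receptor thus had their fitted peaks far apart in the day, near CT2 for Nt5e and near CT13 for Adora2b. Nt5e was also the gene of this list with the highest mean CPM, and its SCNx libraries lay between 27.1 and 48.7 CPM.

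F2rl3 (ENSMUSG00000050147), the receptor PAR4 that thrombin activates by cutting it, had the widest swing of the called genes. In Ctrl it was 2.18 CPM in the lowest library, CT32, 4.08 CPM at the median and 6.40 CPM in the highest, CT20. The high time recurred, with 6.40 CPM at CT20 and 6.30 CPM at CT44, and low values fell at CT4, with 2.63 CPM, and CT32. The fitted peak was at CT20.2, with an amplitude of 0.60 ± 0.10 (SE). The change from trough to peak was 2.28-fold, with an adjusted p of 0.00152 in edgeR's quasi-likelihood test.

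Among the receptor genes in SCNx, F2rl3 came nearest to a called rhythm. Its SCNx libraries lay between 2.08 CPM at CT8 and 5.08 CPM at CT40, with a median of 3.81 CPM, and 4 of 12 Ctrl libraries were above all of them. The fitted SCNx curve peaked at CT19.9 with an amplitude of 0.33 ± 0.100 (unadjusted p 0.0157, adjusted p = 0.222, edgeR). The days correlated with r 0.72 in Ctrl and 0.74 in SCNx over 6 matched times. The test of the difference between the groups gave an adjusted p of 0.512, so that a smaller rhythm in SCNx was not shown. Fam98a (r 0.90), Chordc1, a co-chaperone of HSP90 (0.87), and Ahsa2, a relative of HSP90 activators (0.84), ran most like F2rl3 over the 24 libraries.

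Of the 4 genes listed beside F2rl3, the other protease-activated receptors F2rl1 and F2rl2 were below the minimum. F2r, the receptor PAR1, had a mean of 5.82 CPM in Ctrl and did not pass (adjusted p = 0.156, edgeR). F2, which encodes prothrombin and is made in liver, had 31.9 CPM in Ctrl CT16, 160 CPM in SCNx CT0 and at most 0.55 CPM in any other library. These are the libraries with hepatocyte transcripts. The test called F2 for a rhythm in Ctrl (adjusted p = 0.0225, edgeR) and for a difference (0.0496), and both rest on a single library of each group.

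Gpr75 (ENSMUSG00000043999), a receptor without a firmly assigned ligand, was highest in the later part of the subjective night of Ctrl. It had 4.47 CPM in the lowest Ctrl library, CT4, 5.57 CPM at the median and 8.86 CPM in the highest, CT44. On the first day it rose to 8.39 CPM at CT20, and CT20 and CT44 are the same time of the cycle. The fitted peak was at CT19.5 with an amplitude of 0.45 ± 0.061 (SE), a 1.87-fold change. The adjusted p was 0.000335 in edgeR's quasi-likelihood test, the smallest of the set.

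In SCNx Gpr75 stayed between 4.53 CPM and 6.36 CPM, the latter at CT32, with a median of 5.06 CPM. Of 12 Ctrl libraries 5 lay above that range and 1 below it. The amplitude was 0.097 ± 0.061, and 0.16 without Ctrl CT4 and SCNx CT32. For the difference of the rhythm the adjusted p was 0.0596 in edgeR's quasi-likelihood test, and 0.0930 without these 2 libraries. This difference passed in only 3 of 32 alternatives, with DESeq2 (0.0134) and without SCNx CT8 or SCNx CT20. Over all alternatives its adjusted p was at most 0.334. The level in SCNx was 0.22 ± 0.11 lower on the log2 scale, which did not pass (unadjusted p 0.0573, adjusted p = 0.555, edgeR). The annotation places 4.34% of the exon bases of Gpr75 in Asb3 exons on the same strand, so a small part of its counts may belong to that gene.

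Gpr137c (ENSMUSG00000049092), a multi-pass membrane protein of the GPR137 family, had a fitted peak at nearly the same time, but its rhythm did not pass the test. Its Ctrl libraries lay between 11.01 CPM at CT28 and 17.3 CPM at CT44, with a median of 13.3 CPM and 16.96 CPM at CT20. The correlation of the days over 6 matched times was 0.92, and the fitted curve peaked at CT19.3 with an amplitude of 0.32 ± 0.098. Its adjusted p in edgeR's quasi-likelihood test was 0.0800 and the unadjusted p was 0.0114. In SCNx the values lay between 9.76 CPM and 15.3 CPM apart from 21.9 CPM in SCNx CT32, the library with the most astrocyte transcripts. Without SCNx CT32, from which the fit takes part of its spread, the adjusted p of the rhythm in Ctrl was 0.00422, with an amplitude of 0.32. The related genes Gpr137 and Gpr137b did not pass, and Gpr137 had the higher mean in Ctrl, 60.5 CPM.

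Gpr75, Gpr137c and F2rl3 moved together in Ctrl, where the correlation of log2 CPM over the 12 libraries was 0.91 for Gpr75 with Gpr137c, 0.89 for Gpr75 with F2rl3 and 0.77 for Gpr137c with F2rl3. In SCNx the same values were 0.69, 0.23 and 0.08. These are descriptions over mice that share a time course. SCNx CT32 was the highest SCNx library of both Gpr75 and Gpr137c, and no SCNx correlation without it is given. The genes most like Gpr75 over the 24 libraries were Lman2l, a cargo receptor of the secretory pathway (0.85), Tram1, a part of the translocation machinery of the endoplasmic reticulum (0.81), and Spcs2, a subunit of the signal peptidase (0.80). Those most like Gpr137c were Arl8b, a lysosomal GTPase (0.83), Kantr, a noncoding RNA (0.82), and Marf1 (0.82), and these values were between 0.69 and 0.71 without SCNx CT32 and Ctrl CT44.

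**Figure D2:**
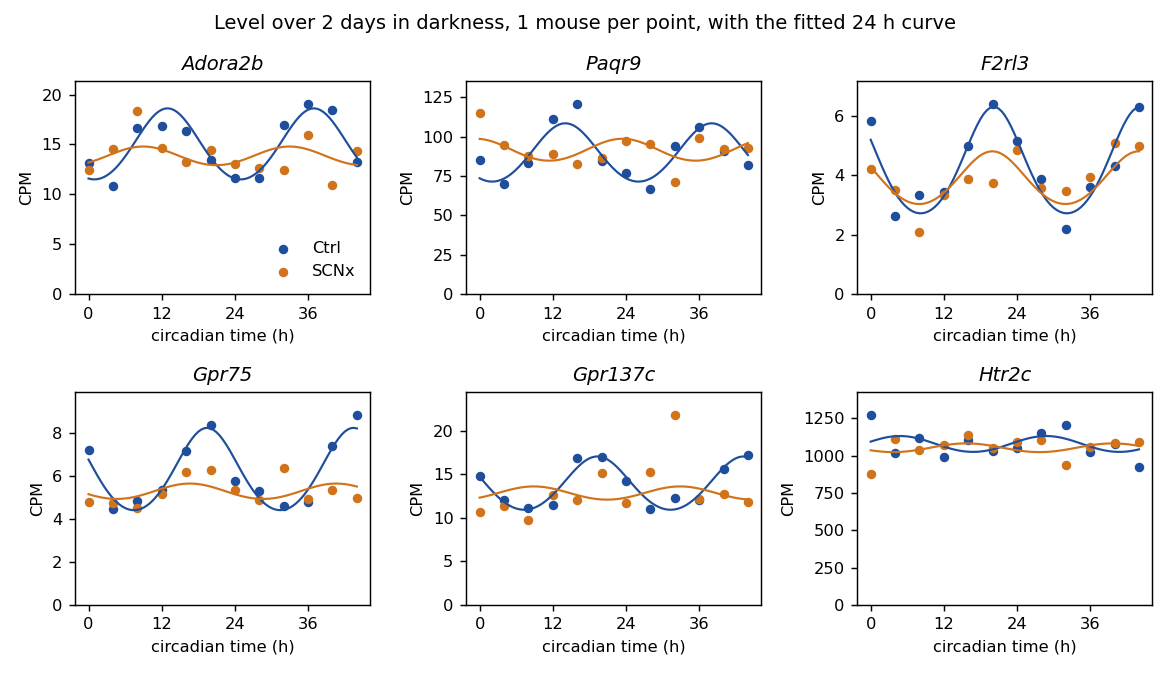
Level in CPM against circadian time for Adora2b, Paqr9, F2rl3, Gpr75, Gpr137c and Htr2c, with 1 point per mouse and a 24 h curve for Ctrl and SCNx. The curves are least-squares fits to log2 CPM, and the peak times and amplitudes given are those of edgeR's fit. The Ctrl curves of F2rl3, Gpr75 and Gpr137c peak between CT19.3 and CT20.2, those of Adora2b and Paqr9 at CT12.9 and CT14.1, and the Htr2c curves have amplitudes of 0.072 and 0.036; the SCNx point of Gpr137c at 21.9 CPM is SCNx CT32.

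The promoters of these 3 genes are shown because their transcripts ran together. Each is the 250 bases before the gene start in RefSeq (GRCm38.p6, plus strand), at chr11:30885108-30885357 for Gpr75, chr14:45219467-45219716 for Gpr137c and chr8:72761409-72761658 for F2rl3. Nothing is in capitals because no motif searched was found in them.
Gpr75 promoter: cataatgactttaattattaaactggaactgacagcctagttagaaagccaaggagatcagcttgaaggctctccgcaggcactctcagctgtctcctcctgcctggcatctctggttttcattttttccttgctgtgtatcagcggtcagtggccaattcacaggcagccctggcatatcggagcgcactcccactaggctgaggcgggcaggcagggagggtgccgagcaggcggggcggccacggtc
Gpr137c promoter: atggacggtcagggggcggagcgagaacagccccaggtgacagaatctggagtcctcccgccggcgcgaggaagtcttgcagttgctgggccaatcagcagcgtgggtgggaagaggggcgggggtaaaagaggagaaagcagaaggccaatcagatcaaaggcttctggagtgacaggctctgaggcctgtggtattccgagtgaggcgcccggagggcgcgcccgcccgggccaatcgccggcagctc
F2rl3 promoter: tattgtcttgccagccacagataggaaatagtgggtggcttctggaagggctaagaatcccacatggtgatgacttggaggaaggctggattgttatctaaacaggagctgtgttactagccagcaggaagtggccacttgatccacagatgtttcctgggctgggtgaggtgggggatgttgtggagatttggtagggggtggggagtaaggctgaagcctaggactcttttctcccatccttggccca
The search covered both strands for the E-box CACGTG, the D-box TTATGCAA or TTATGTAA, the nuclear receptor motif AGGTCA and the cAMP response element TGACGTCA, of which none contains another. Promoters were listed for 8 of the 9 genes, with 3 entries for Lpar1 and none for Paqr9. Of these 10 promoters only that of Htr2c held a match, and over all 32851 promoters the E-box was in 6.02%, the D-box in 1.5%, the cAMP response element in 1.55% and any of the motifs in 21.7%. The promoter of Gpr137c was 64.8% G and C with 18 CG dinucleotides, that of Gpr75 56% with 9, and that of F2rl3 52% with 0. That these letters are absent from the windows says nothing about more distant sequence.

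Paqr9 (ENSMUSG00000064225), a progestin and adipoQ receptor family member with 7 membrane spans that is not a classical G-protein-coupled receptor, peaked early in the subjective night of Ctrl. The lowest Ctrl library was CT28 with 66.6 CPM, the median 84.9 CPM and the highest CT16 with 121 CPM. The first day ran from 70.0 CPM at CT4 to 121 CPM at CT16, the next from 66.6 CPM at CT28 to 106 CPM at CT36. The fitted peak was at CT14.1 with an amplitude of 0.30 ± 0.063 (SE), a 1.52-fold change. The adjusted p was 0.00628 in edgeR's quasi-likelihood test. Adora2b and Paqr9 correlated with r 0.79 over the 12 Ctrl libraries and -0.03 over the SCNx libraries.

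In SCNx Paqr9 lay between 71.3 CPM at CT32 and 115 CPM at CT0, with a median of 92.6 CPM, and the fitted curve had an amplitude of 0.11 ± 0.063. The rhythm of Paqr9 differed between Ctrl and SCNx in the test, with an adjusted p of 0.0348 (edgeR), and it did so for 1 of the 9 genes, Paqr9 itself, beside 2.12% of all tested genes. The highest Paqr9 libraries of each group, Ctrl CT16 and SCNx CT0, were the libraries with hepatocyte transcripts, and Paqr9 is also known to be expressed in liver. Over the 24 libraries Paqr9 correlated with the summed hepatocyte markers with r 0.61, and no correlation without Ctrl CT16 and SCNx CT0 is given. Without these libraries the amplitude in Ctrl was 0.26 with an adjusted p of 0.0131, and the difference of the rhythm had an adjusted p of 0.116. Leaving out any of 15 single libraries also took that difference above the threshold, among them Ctrl CT16 and SCNx CT0, and over all alternatives its adjusted p was between 0.00353 and 0.116. The part of the hepatocyte transcripts in the difference was not tested.

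The transcripts most like Paqr9 were those of Ghr, the growth hormone receptor (r 0.86), Gucd1 (0.84) and Prodh, the proline dehydrogenase (0.80). Without Ctrl CT28 and Ctrl CT16 these correlations were 0.81, 0.82 and 0.81, and none without SCNx CT0 is given. All 10 other genes listed for the Paqr family were tested, and 1 passed in Ctrl, Mmd, with an amplitude of 0.16 and a peak at CT7.05 (adjusted p = 0.0215, edgeR). The most abundant was Adipor1, an adiponectin receptor, with a mean of 219 CPM in Ctrl and an amplitude of 0.068.

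**Figure D3:**
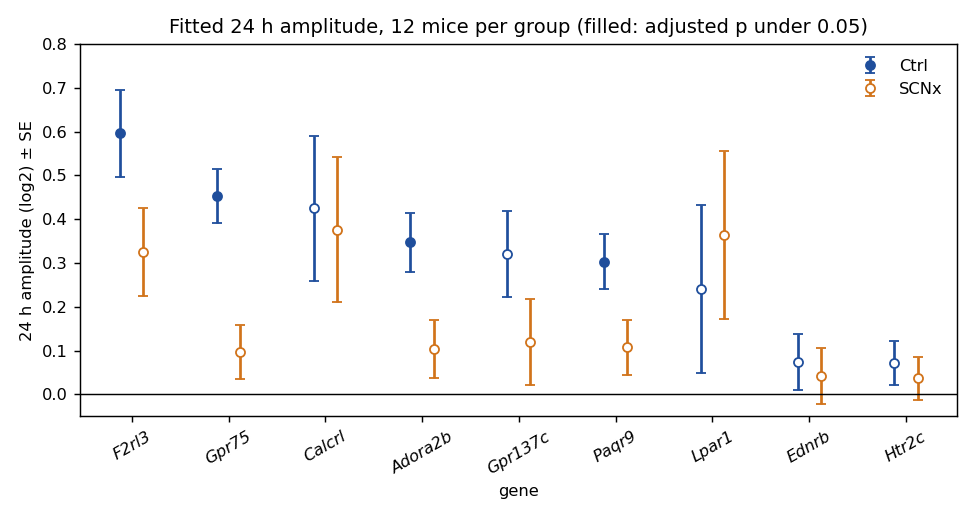
Fitted 24 h amplitude on the log2 scale with its SE for each receptor gene in Ctrl and SCNx (12 mice each). Filled symbols mark an adjusted p under 0.05 in edgeR's quasi-likelihood test. Each SE rests on all 24 libraries and is the same in both groups. Only F2rl3, Gpr75, Adora2b and Paqr9 in Ctrl are filled, the SCNx amplitudes of Gpr75, Adora2b and Paqr9 are near 0.10, and Lpar1 and Calcrl have the widest errors.

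Ednrb (ENSMUSG00000022122), the endothelin B receptor, was abundant and, like Htr2c, passed no test. It had 76.2, 91.0 and 105 CPM in the lowest, median and highest Ctrl libraries and 78.1, 95.9 and 115 CPM in SCNx, and 11 of 12 Ctrl libraries lay inside the SCNx range. The amplitudes were 0.075 ± 0.064 in Ctrl and 0.043 ± 0.064 in SCNx, and the adjusted p of a rhythm in Ctrl was 0.695 in edgeR's quasi-likelihood test. The level differed by 0.070 ± 0.059 on the log2 scale, with a 95% interval from -0.051 to 0.19. Ednrb and Htr2c correlated with r 0.66 over the Ctrl libraries. Shoc2 (0.75), Nhsl1 (0.75) and Arhgef11 (0.74) ran most like Ednrb over the 24 libraries.

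A ligand of this receptor was rhythmic. Edn3, which encodes endothelin-3, had 11.6 CPM in the lowest Ctrl library, CT28, 16.1 CPM at the median and 26.8 CPM in the highest, CT36. Its fitted peak was at CT13.9 with an amplitude of 0.45 ± 0.077 and an adjusted p of 0.00116 (edgeR), and it was the 1 gene called of 4 tested and 6 listed for endothelin. In SCNx Edn3 lay between 9.98 and 15.6 CPM with an amplitude of 0.030, and the difference of the rhythm had an adjusted p of 0.0650. Ece1, which cuts the endothelin precursor, was the most abundant of the list. It had a mean of 24.4 CPM in Ctrl and 31.7 CPM in SCNx and did not pass any test. Its highest libraries were Ctrl CT16 with 35.2 CPM and SCNx CT0 with 49.6 CPM, those with hepatocyte transcripts.

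Calcrl (ENSMUSG00000059588), the calcitonin receptor-like receptor that forms receptors for CGRP or adrenomedullin with RAMP proteins, varied widely and was highest in a single SCNx library. Its Ctrl libraries lay between 6.65 CPM at CT24 and 17.5 CPM at CT16, with a median of 12.0 CPM. In SCNx the lowest library had 10.5 CPM, the median 14.3 CPM, the next to highest 16.7 CPM and SCNx CT32 38.4 CPM. The groups overlapped apart from that library and 3 Ctrl libraries below the SCNx range. The level was 0.38 ± 0.19 higher in SCNx on the log2 scale, which did not pass (unadjusted p 0.0594, adjusted p = 0.558, edgeR). Without Ctrl CT4 and SCNx CT32 the difference was 0.14.

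The fitted amplitude of Calcrl was 0.42 ± 0.17 in Ctrl, with an adjusted p of 0.237, and 0.38 ± 0.17 in SCNx (edgeR). Without SCNx CT32 the adjusted p in Ctrl was 0.0403 with an amplitude of 0.42, and the amplitude in SCNx was 0.093. Calcrl is known as a gene of endothelial cells, and over the 22 libraries without Ctrl CT4 and SCNx CT32 it correlated with the 7 summed endothelial markers with r 0.54 and with the 5 mural markers with r 0.53. Over the same libraries r was 0.51 for the macrophage and 0.49 for the fibroblast markers, so the vessel lists did not stand apart. The endothelial sum itself ran from 149 to 354 CPM in Ctrl and from 168 to 428 CPM in SCNx. In such bulk samples fewer cells of a type and less RNA per cell cannot be told apart. The part of the vessels in the time course of Calcrl was not tested. Cd200 (0.91), Galnt15 (0.87) and St8sia4 (0.87) ran most like Calcrl, and without SCNx CT32 and Ctrl CT24 their correlations were between 0.71 and 0.76.

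Of 8 genes of the calcitonin family 4 were tested and 1 passed in Ctrl. This was Ramp2, the partner that makes Calcrl an adrenomedullin receptor, with 13.8 CPM in the lowest Ctrl library and 26.9 CPM in the highest, CT36. Its amplitude was 0.37 ± 0.081 and its peak was at CT13.2 (adjusted p = 0.00871, edgeR), near the fitted peak of Calcrl at CT12.5, which did not pass. Ramp2 was also the most abundant of the list, at a mean of 18.5 CPM in Ctrl and 16.3 CPM in SCNx.

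Lpar1 (ENSMUSG00000038668), a receptor for lysophosphatidic acid with known expression in oligodendrocytes and other glia, showed 1 high library in each group. In Ctrl it was 5.10 CPM in the lowest library, 6.70 CPM at the median, 10.04 CPM in the next to highest and 15.5 CPM in CT4. In SCNx it was 5.70 CPM in the lowest library, 7.18 CPM at the median, 7.88 CPM in the next to highest and 21.0 CPM in CT32. Both high libraries are those with the astrocyte and neuronal transcripts, and Lpar1 correlated with the summed astrocyte markers with r 0.89 over the 24 libraries and 0.46 without these 2. With oligodendrocyte markers r fell from 0.72 to 0.013 when both were left out, and with fibroblast markers it went from 0.37 to 0.52. Without them the Ctrl mean was 7.02 ± 1.40 CPM and the SCNx mean 6.95 ± 0.77 CPM (SD, n = 11 each).

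No test called Lpar1. The adjusted p of a rhythm was 0.715 in Ctrl and 0.493 in SCNx, with amplitudes of 0.24 ± 0.19 and 0.36 ± 0.19 (edgeR). Without SCNx CT32 the amplitude in SCNx was 0.13, below that in Ctrl. The difference in level was 0.072 ± 0.20 on the log2 scale, and it was -0.019 without both libraries. Gja1, the gap junction protein of astrocytes (0.94), Slc2a13 (0.94) and Pgm5 (0.92) ran most like Lpar1, and without SCNx CT32 and Ctrl CT4 these correlations were 0.75, 0.72 and 0.66. Enpp2, whose product autotaxin makes lysophosphatidic acid, was the most abundant of the 9 genes listed for this lipid, at a mean of 59051 CPM in Ctrl and an amplitude of 0.017. Lpar2, a further receptor for the lipid, was the 1 of 7 tested genes that passed, with an amplitude of 0.36 ± 0.096 and a peak at CT8.54 (adjusted p = 0.0427, edgeR).

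**Figure D4:**
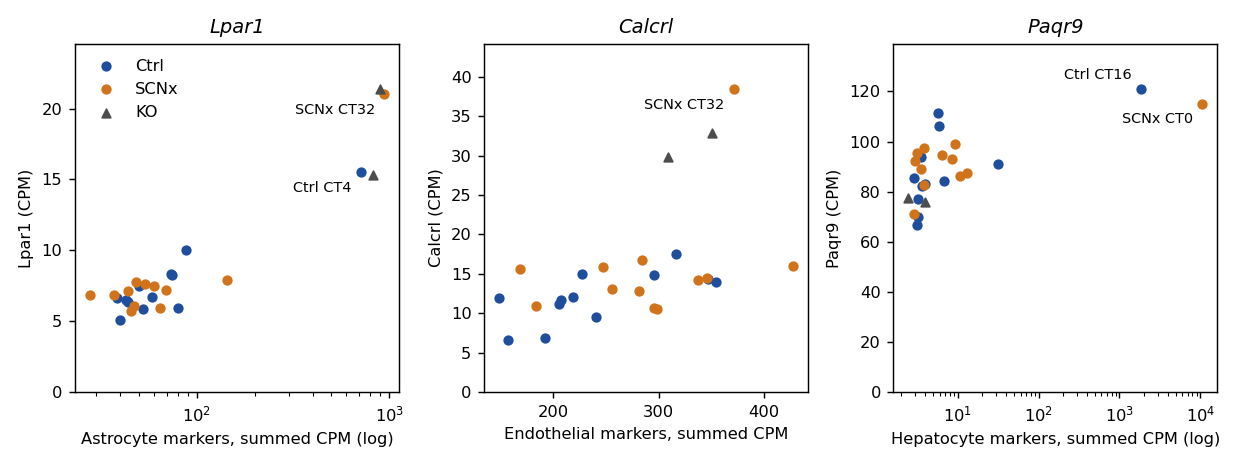
Level in CPM of Lpar1, Calcrl and Paqr9 against the summed CPM of astrocyte, endothelial and hepatocyte markers, with 1 point per mouse for Ctrl, SCNx and KO and log axes for the astrocyte and hepatocyte sums. Lpar1 is at 15.5 CPM in Ctrl CT4 and 21.0 CPM in SCNx CT32, far to the right, Calcrl is at 38.4 CPM in SCNx CT32, and the highest Paqr9 points of Ctrl and SCNx are the ones with hepatocyte transcripts.

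No receptor gene passed the test of a rhythm in SCNx, 0 of 9, beside 0% of all tested genes. At an unadjusted p under 0.05 there was 1, F2rl3, and DESeq2 and limma-trend called 0 of the 9 too. Over all tested genes 2032 had an unadjusted p under 0.05 in SCNx, DESeq2 called 432 and limma-trend 0. With all libraries the fitted amplitude was smaller in SCNx than in Ctrl for every receptor gene but Lpar1, and of these differences that of Paqr9 alone passed the test. This order turned for Lpar1 without SCNx CT32, and for Calcrl and Ednrb without some other single libraries. Levels did not separate the groups either, with 0 of 9 genes called beside 0% of all tested genes, no receptor gene with an unadjusted p under 0.05 beside 9.37% of all tested genes, and 0 of the 9 with DESeq2 or limma-trend. The median log2 difference of the 9 genes was -0.035 beside 0.011 over all tested genes.

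The further machinery of G-protein signalling was described in the same way. Over the 12 lists of genes around these receptors, 145 in all, 105 were tested, 14 passed for a rhythm in Ctrl, F2 among them, or 13.3% of those tested beside 10.7% of all tested genes, and 0 in SCNx, where 0% of all tested genes passed. Among 20 tested G protein subunits 2 passed, Gnb5 with an amplitude of 0.13 and a peak at CT2.64 (adjusted p = 0.0220) and Gna13 with 0.12 at CT22.7 (0.0472), in edgeR's quasi-likelihood test. Gnas, which encodes the Gs subunit, was the most abundant at a mean of 1357 CPM in Ctrl, with an amplitude of 0.0012. The rhythm of Gnb5 differed between the groups with an adjusted p of 0.0404.

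Of 16 tested genes for adenylyl cyclases, protein kinase A and cAMP phosphodiesterases 3 passed. Adcy5, an adenylyl cyclase, had 38.3 CPM in the lowest Ctrl library and 71.6 CPM in the highest, CT4. Its amplitude was 0.32 ± 0.052 with a peak at CT6.72 (adjusted p = 0.000896, edgeR). Prkar2a, a regulatory subunit of protein kinase A, peaked at CT19.6 with an amplitude of 0.14, and Pde4a, which degrades cAMP, at CT23.4 with 0.18. The most abundant gene was Prkar1a with a mean of 263 CPM in Ctrl. Of 13 tested genes for receptor kinases, arrestins and RGS proteins 1 passed, Arrb1, which encodes beta-arrestin 1, with an amplitude of 0.33 ± 0.089 and a peak at CT1.48 (adjusted p = 0.0418, edgeR). Rgs5, a gene of mural cells, was the most abundant of them with 147 CPM in Ctrl. The highest Arrb1 libraries were Ctrl CT4 with 86.1 CPM and SCNx CT32 with 109 CPM, those with astrocyte and neuronal transcripts. No fit of Arrb1 without these libraries is given. Called genes of these lists thus peaked at many times of the day.

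In the KO libraries the deleted gene could not be checked by its gene count. Arntl was at 11.1 CPM at ZT7 and 8.98 CPM at ZT18, inside the Ctrl range from 2.01 to 39.4 CPM, and a count over the whole gene includes exons that the deletion leaves in place and cells without Cre. With 1 mouse at each time there is no test, and the intervals below are exact binomial ones that cover counting error only. The 5 astrocyte markers summed to 822 and 891 CPM in these libraries, and the 8 epithelial markers to 46949 and 48418 CPM, below every Ctrl and SCNx library. By the paper, the KO mice were also older, were given tamoxifen, were housed at another institute and gave RNA of lower integrity. No surgery is described for them. The genotype, the light cycle, the dissection, the kit and these further differences cannot be told apart here.

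Htr2c was lower in both KO libraries than in any of the 24 others, at 869 CPM at ZT7 and 635 CPM at ZT18. F2rl3 was below all of them too, with 1.08 and 1.01 CPM from only 18 and 19 counts. Calcrl, at 29.8 and 32.8 CPM, and Lpar1, at 15.3 and 21.4 CPM, had means 2.58 and 2.37 times those of Ctrl, near the values in SCNx CT32. Of the other receptor genes Gpr137c and Paqr9 lay inside the range of the other groups in both libraries, and Adora2b, Gpr75 and Ednrb in 1 of the 2. Gpr137c, at 17.4 and 20.0 CPM in KO, did so only through SCNx CT32 with 21.9 CPM. The highest Ctrl library of Gpr137c had 17.3 CPM and the next to highest SCNx library 15.3 CPM.

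The day-night difference in KO was set beside that of the other groups, taken as the mean log2 CPM of CT8 and CT32 minus that of CT16, CT20, CT40 and CT44. For Htr2c it was 0.45 on the log2 scale in KO, with a counting interval from 0.42 to 0.49, 0.17 in Ctrl and -0.14 in SCNx, and 0.33 in KO without scaling between the 2 libraries. For Adora2b it was 0.88 in KO, with an interval from 0.54 to 1.23, 0.14 in Ctrl and 0.20 in SCNx. The fitted Ctrl peak of Adora2b lay between these day and night times, so that a rhythm like the one in Ctrl gives little difference here.

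For the genes with a late night peak in Ctrl the KO difference lay nearer to 0 than that of Ctrl, with no test. For Gpr75 the difference was -0.40 in KO, with an interval from -0.88 to 0.077, and -0.53 without scaling between the KO libraries. It was -0.75 in Ctrl and -0.078 in SCNx. For Gpr137c it was -0.20 in KO, with an interval from -0.43 to 0.020 and -0.33 without scaling between the KO libraries, -0.51 in Ctrl and 0.18 in SCNx. For F2rl3 it was 0.10 in KO, with an interval from -0.91 to 1.11 and a turn of sign to -0.026 without that scaling, -1.01 in Ctrl and -0.71 in SCNx. For Paqr9 the values were -0.030 in KO, -0.081 in Ctrl and -0.16 in SCNx, and for Ednrb 0.20, 0.23 and 0.035. All SCNx values include SCNx CT32 as 1 of the 2 day libraries, among them those of Calcrl and Lpar1, 0.90 and 0.66. For Gpr137c the SCNx day libraries CT8 and CT32 had 9.76 and 21.9 CPM, and the night libraries lay between 11.8 and 15.1 CPM. For Gpr75 the same day libraries had 4.53 and 6.36 CPM, and the night libraries lay between 4.96 and 6.28 CPM. No day-night difference without SCNx CT32 is given.

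**Figure D5:**
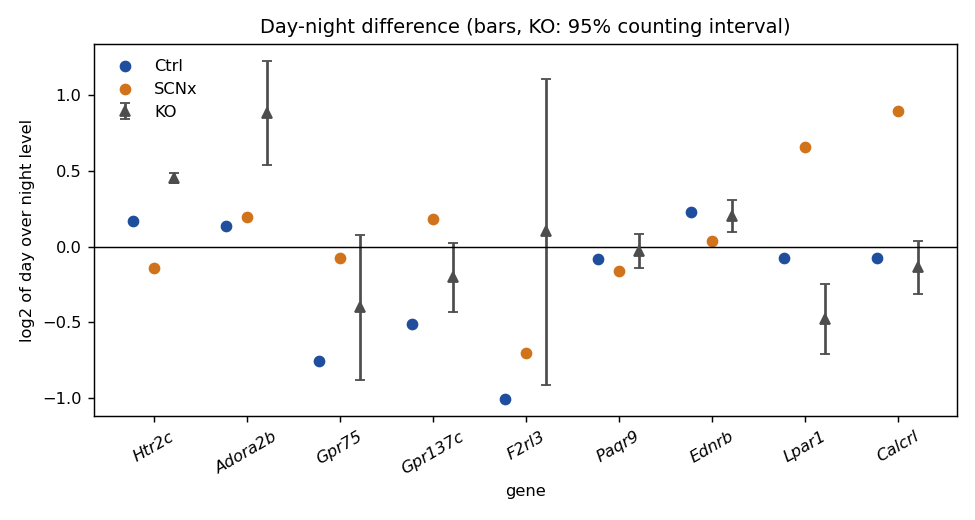
Log2 of the day over the night level for each receptor gene in Ctrl and SCNx (means over 2 day and 4 night mice) and in KO (1 mouse each, ZT7 and ZT18, with bars for the 95% counting interval). Among the KO values that of Adora2b is the highest at 0.88, the Ctrl values of Gpr75, Gpr137c and F2rl3 are between -0.51 and -1.01, and the interval of F2rl3 in KO is the widest because it rests on 18 and 19 counts.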

How the data were processed

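RNA-seq libraries of 12 Ctrl, 12 SCNx and 2 KO mice were analysed. The authors aligned single-end reads with STAR to GRCm39 (Ensembl 104) in the nf-core/rnaseq pipeline and deposited Salmon 1.9.0 estimated counts per gene, not normalized, which were rounded to whole numbers here. The KO table was normalized separately, so values of KO are set beside the others without a test. Depth ranged from 38751201 to 49527655 estimated counts per library in Ctrl and SCNx, and the KO libraries held less than that.

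Tests covered genes whose mean CPM reached 1 in both groups. CPM used the total over these genes and TMM factors. In edgeR 4.0.16 (R 4.3.3) a mean with a 24 h cosine and sine per group was fitted to all 24 libraries, and a mean per group for levels. The quasi-likelihood F test of edgeR gave p, adjusted by Benjamini-Hochberg over all 13697 genes, with a threshold of 0.05. The amplitude is that of edgeR's fit. Its SE comes from a least-squares fit of the same curve to log2 CPM (prior count 1). The spread around that curve is taken over all 24 libraries, so the SE is the same in Ctrl and SCNx. Each time point is 1 mouse, so the spread around the curve holds both biological and technical variation.

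The 9 receptor genes, the 12 lists of pathway genes, the marker lists and the motifs were chosen with earlier results of these data known. Named beside the receptor genes were the genes most like each in log2 CPM over the 24 libraries (5 for Htr2c, 3 for the others), and of each list the called genes, at most 4, with the most abundant one. Exon lengths came from GENCODE M21 (GRCm38) and promoters from RefSeq, and no coordinates of the files' build are given. Alternatives were DESeq2 1.42.0, limma-trend 3.58.1, DESeq2 size factors, other minimum levels, the day or the time point as a factor, 1 group alone, and each library left out. On simulated counts 44% of 200 genes with a rhythm of amplitude 0.3 (log2) in Ctrl were recovered and 83.5% at 0.6. For a difference of rhythm the shares were 19% and 70%. Unlike in the data, no other simulated gene had a rhythm and no library stood apart, so recovery in the data may differ. Figures were drawn with matplotlib 3.10.9.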

Additional observations from a re-analysis of the deposited data

Results flagged for a closer look

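The rhythm of Paqr9 differed between Ctrl and SCNx, 2 groups under the same time course. The adjusted p of the difference was 0.0348 in edgeR's quasi-likelihood test, with an amplitude of 0.30 and a peak at CT14.1 in Ctrl and an amplitude of 0.11 in SCNx. Without Ctrl CT16 and SCNx CT0, the libraries with hepatocyte transcripts, the adjusted p was 0.116. The difference passed in only 16 of 32 alternatives and was also lost without other single libraries, among them Ctrl CT12 (0.0860) and SCNx CT16 (0.0740).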

How the results depend on the processing

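The rhythms of Adora2b, F2rl3, Gpr75 and Paqr9 in Ctrl passed under all 33 alternatives, with adjusted p of at most 0.0170, 0.00851, 0.00517 and 0.0233, and no alternative called a receptor gene for a rhythm in SCNx or for a level. The count of receptor genes called in Ctrl lay between 4 and 6 without single libraries. It was 5 with DESeq2, with Ctrl alone and without Ctrl CT4 and SCNx CT32, with Gpr137c added each time. The count of genes whose rhythm differed was 2 with DESeq2 (Gpr75 and Paqr9), 0 without Ctrl CT16 and SCNx CT0, and between 0 and 2 without single libraries. Over all tested genes, single libraries left out gave between 918 and 2249 rhythmic genes in Ctrl, 0 to 6 in SCNx, 163 to 466 with a difference of rhythm and 0 to 3 with a difference in level. Without Ctrl CT4 and SCNx CT32 the counts were 2223 rhythmic in Ctrl and 504 with a difference of rhythm. DESeq2 called 432 genes in SCNx, 589 for the difference and 14 for the level, and without a minimum CPM edgeR called 1384 in SCNx and 654 for the difference. The causes were not tested. The log2 level difference of Lpar1, 0.072 and not called, turned to -0.019 without Ctrl CT4 and SCNx CT32 and lay between -0.16 (SCNx CT32) and 0.21 (Ctrl CT4) with single libraries left out. Without scaling between the KO libraries the day-night differences of Htr2c, Paqr9 and Ednrb were 0.33, -0.16 and 0.073 on the log2 scale. That of F2rl3 turned from 0.10 to -0.026. Those of Gpr75, Gpr137c and Calcrl went from -0.40, -0.20 and -0.14 to -0.53, -0.33 and -0.27. Depth limits F2rl3 in KO most, with 18 and 19 counts.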
